A study of Mus musculus with 48 samples.

Results

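The 38 genes described here carry the copying of DNA and the division of the cell: 13 encode proteins of DNA replication, 4 control the passage from G1 into S phase, and 21 act in mitosis. They were taken by gene symbol from a table of 49315 genes measured in 48 mouse livers. All 38 symbols were found once each. A gene was tested when it reached 1 TPM in at least 6 of the 48 libraries, and 31 of the 38 did. The unit TPM divides a gene's reads by its length and brings every library to the same total. The 7 genes below that level were Cdc6, Gins2, Ccnb1, Bub1, Aurkb, Nusap1 and Prc1.

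A cell that enters the cycle makes D-type cyclins, which release the E2F transcription factors from the retinoblastoma protein. E2F factors then switch on cyclin E and the genes for the replicative helicase, the sliding clamp and the supply of deoxynucleotides. Later in the cycle cyclin A, cyclin B and the kinase Cdk1 start mitosis, and the spindle, its checkpoint and the anaphase-promoting complex separate the chromosomes. The adult liver is a quiet tissue in which few cells divide, but hepatocytes can return to the cycle, and many of them carry more than the diploid set of chromosomes.

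Male and female C57BL/6J mice, an inbred strain, were kept on 1 of 2 diets, low in fat (LFD) or high in fat (HFD). Each week they received vehicle or a mixture of 3 dioxin-like chemicals for 12 weeks. The mixture held 10 ng/kg TCDD (a dioxin), 80 ng/kg PeCDF (a chlorinated furan) and 140 ng/kg PCB126 (a chlorinated biphenyl), all of which bind the aryl hydrocarbon receptor. Bulk polyA RNA of the liver was sequenced. The 8 groups of 6 libraries were LFD males, HFD males, LFD females and HFD females, each with vehicle or with the mixture. The labels name no genetic alteration in any group, and the animals' age was not given in the sources used here. In bulk RNA, fewer cells of a type and less RNA per cell cannot be told apart, and that holds for every level given here.

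Most of the 38 genes were expressed at low levels. Over all 48 libraries the median was 34.4 TPM for Ccnd1, 31.6 for Pcna, 16.3 for Tk1, 7.66 for Mcm7 and 6.61 for Rrm2. Medians of the 21 mitosis genes ran from 0.157 TPM for Bub1 to 2.69 for Aurka. Mki67, the standard marker of cycling cells, had a median of 0.862 TPM and never exceeded 2.04. The hepatocyte markers showed that the tissue was liver: Alb had a median of 68055 TPM and none of the 10 genes of that list was at 0 in any library. The deposited table gives no read totals, so the depth behind these low values is unknown. Skeletal muscle transcripts stood out in 3 libraries, HFD mixture male replicate 6, LFD vehicle female replicate 3 and LFD mixture female replicate 3, where 15 muscle genes summed to 23583, 8740 and 1854 TPM. The fourth highest library had 761 TPM. Other lists had high sums too. Adrenal cortex genes reached 1641 TPM in LFD mixture females (median 4.89) and 91.9 in LFD mixture males (3.72). B and plasma cell genes reached 363 TPM in LFD vehicle males (38.4) and 160 in HFD vehicle females (20.3). Libraries high in these 2 lists were left out only singly.

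Promoter windows of 300 bases (250 before the RefSeq transcription start, 50 after it, GRCm38.p6) were found for 31 of the 38 genes, and replication and mitosis genes held different shares of 3 short words. An E2F-like word (the word GCGGGAA, the word GCGGCAA, the word GCGCGAA or the word GCGCCAA, on either strand) stood in 7 of 11 replication windows (63.6%), in 3 of 18 mitosis windows (16.7%) and in 9.57% of all 32851 windows. The CHR word TTTGAA, known from genes switched on late in the cycle, stood in 14 of 18 mitosis windows (77.8%), in 1 of 11 replication windows (9.09%) and in 17.9% of all windows. The CCAAT box was found in 16 of 18 mitosis windows (88.9%), in 8 of 11 replication windows (72.7%) and in 37.4% of all. Neither of the 2 windows of G1/S genes, E2f1 and Ccne1, held any of the 3. A word match describes the letters only.

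The windows of 6 genes are printed, 5′ to 3′ on the strand of the gene, to show these words (in capitals) beside the genes whose levels follow. Mcm2 and Pcna were the replication genes, and Aurka and Cdca8 the mitosis genes, with the smallest p over the averaged diet and sex comparisons among those with a window; Mcm6 and Top2a were added after the words had been counted. All 6 genes lie on the minus strand. The windows are chr6:88898731-88899030 for Mcm2, chr2:132253131-132253430 for Pcna, chr1:128359656-128359955 for Mcm6, chr2:172370521-172370820 for Aurka, chr4:124936868-124937167 for Cdca8 and chr11:99024140-99024439 for Top2a.
Mcm2: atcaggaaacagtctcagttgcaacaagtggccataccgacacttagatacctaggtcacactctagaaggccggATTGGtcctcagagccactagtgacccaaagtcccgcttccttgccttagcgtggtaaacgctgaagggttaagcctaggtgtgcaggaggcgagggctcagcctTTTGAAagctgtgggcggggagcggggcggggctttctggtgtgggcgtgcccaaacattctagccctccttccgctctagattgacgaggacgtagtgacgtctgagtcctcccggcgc
Pcna: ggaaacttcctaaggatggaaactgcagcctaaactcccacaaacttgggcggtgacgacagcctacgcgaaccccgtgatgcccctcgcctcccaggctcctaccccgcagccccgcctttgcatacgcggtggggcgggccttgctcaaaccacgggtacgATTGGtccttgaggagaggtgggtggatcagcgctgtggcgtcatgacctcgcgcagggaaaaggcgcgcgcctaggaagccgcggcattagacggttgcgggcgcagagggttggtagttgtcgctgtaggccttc
Mcm6: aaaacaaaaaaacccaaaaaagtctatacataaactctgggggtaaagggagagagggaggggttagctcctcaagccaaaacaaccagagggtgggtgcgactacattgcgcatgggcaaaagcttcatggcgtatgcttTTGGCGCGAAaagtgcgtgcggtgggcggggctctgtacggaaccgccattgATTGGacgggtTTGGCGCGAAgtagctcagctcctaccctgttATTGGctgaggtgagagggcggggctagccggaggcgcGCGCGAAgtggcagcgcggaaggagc
Aurka: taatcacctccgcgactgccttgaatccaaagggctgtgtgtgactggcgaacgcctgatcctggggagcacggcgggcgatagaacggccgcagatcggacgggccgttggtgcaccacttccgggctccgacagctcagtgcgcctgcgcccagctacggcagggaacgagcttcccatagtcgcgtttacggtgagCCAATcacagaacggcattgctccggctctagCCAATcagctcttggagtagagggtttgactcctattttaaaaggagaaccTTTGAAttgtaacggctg
Cdca8: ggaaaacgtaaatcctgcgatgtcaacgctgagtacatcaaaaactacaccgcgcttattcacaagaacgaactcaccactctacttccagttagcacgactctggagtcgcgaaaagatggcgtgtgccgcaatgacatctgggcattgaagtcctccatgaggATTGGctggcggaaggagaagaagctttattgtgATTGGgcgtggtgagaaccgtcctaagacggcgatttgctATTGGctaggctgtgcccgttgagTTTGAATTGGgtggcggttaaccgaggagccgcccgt
Top2a: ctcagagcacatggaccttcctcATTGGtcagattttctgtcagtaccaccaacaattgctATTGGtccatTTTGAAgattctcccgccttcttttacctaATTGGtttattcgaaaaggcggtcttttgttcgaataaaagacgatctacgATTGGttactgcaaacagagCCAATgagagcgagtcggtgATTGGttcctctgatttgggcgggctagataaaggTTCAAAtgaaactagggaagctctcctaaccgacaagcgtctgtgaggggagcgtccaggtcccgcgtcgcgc
The Mcm6 window holds 5 E2F-like words and 2 CCAAT boxes, and pairs of E2F-like words overlap within TTGGCGCGAA. Top2a holds 2 CHR words and 6 CCAAT boxes. In Cdca8 the CHR word runs into the last of 4 CCAAT boxes. Mcm2 is the 1 replication gene with a CHR word.

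Diet gave more called genes among the 38 than sex or the mixture did, with the smallest p for E2f1 in vehicle males and for Mcm4, a subunit of the replicative helicase, in mixture males. Differences are given as HFD minus LFD on the log2(TPM + 1) scale, which understates the change of low genes, with the standard error and the Benjamini-Hochberg adjusted p of limma over all 15820 genes tested; a gene was called at an adjusted p under 0.05. Counts of calls are given out of all 38 genes here and below, but only the 31 tested have a p-value. In vehicle males 14 of the 38 genes were called, 13 higher and 1 lower on the HFD, where 31.4% of all genes tested were called (25.6% higher, 5.82% lower). In mixture males 27 were called, 26 higher and 1 lower, against 38.6% of all genes (31.7% and 6.92%). The median over all 38 genes was 0.29 in vehicle males and 0.50 in mixture males, and the median of all genes tested was 0.11 and 0.15. Rescaling the libraries by a trimmed mean removed that general rise (medians then -0.0026 and -0.0056). With this scaling 9 members were called higher and 2 lower in vehicle males, and 17 higher and 1 lower in mixture males. The 2 lower include 1 that was not called before scaling. The share of higher among all called genes moved from 81.5% to 53.2% and from 82.1% to 49.2%. Without any overlap of the diet groups, 10 members were higher and 1 lower in vehicle males (13.4% and 2.26% of all genes tested), and 7 were higher in mixture males (12.9%). Unlike these shares, the counts take in genes that were not tested: Gins2 is among the higher members in both, and Cdc6 in mixture males. Library names count LFD and HFD animals in series of their own; no source used here says if the diets formed separate batches.

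Mcm2 to Mcm7 encode the 6 subunits of the MCM helicase, which unwinds DNA at the replication fork. Mcm4 had a lowest, median and highest level of 1.57, 2.37 and 3.10 TPM in LFD vehicle males and of 4.08, 5.31 and 7.44 TPM in HFD vehicle males. In mixture males the levels were 2.07, 2.25 and 2.84 TPM on the LFD and 4.38, 6.12 and 7.37 TPM on the HFD. The diet groups did not overlap in either exposure, and the differences were 0.98 (SE 0.13, adjusted p = 5.63e-08) with vehicle and 1.05 (SE 0.13, adjusted p = 1e-08) with the mixture, 2.41-fold and 2.55-fold in mean TPM. Mcm2 went from 0.926, 1.25 and 2.05 TPM on the LFD to 2.75, 2.93 and 5.49 TPM on the HFD in vehicle males. With the mixture Mcm2 was at 0.883, 1.28 and 1.87 TPM on the LFD and 2.68, 4.35 and 5.48 TPM on the HFD. Again no HFD male reached down to an LFD male, with differences of 0.91 (SE 0.15, adjusted p = 1.12e-05) and 1.196 (SE 0.15, adjusted p = 4.66e-08). Mcm5 rose by 0.91 and 0.97, Mcm3 by 0.84 and 0.94, and Mcm6 by 0.45 and 1.07 in vehicle and mixture males. Mcm7, the most abundant of the 6, had the smallest differences, with 0.15 (not called) and 0.26 (called). The call of Mcm7 was lost under trimmed-mean scaling, without the filter and without any of 7 of the 12 mixture libraries, and that of Mcm6 in vehicle males under the same alternatives and without any of 8 of 12.

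The other replication genes did not all rise. Pcna, the sliding clamp that holds the polymerase on DNA, was at 23.9, 25.997 and 29.2 TPM in LFD vehicle males and at 31.3, 36.1 and 40.2 TPM in HFD vehicle males, which did not overlap (0.45, SE 0.08, adjusted p = 7.92e-06). In mixture males its rise was 0.35 (SE 0.08, adjusted p = 0.00029), and this call was lost under trimmed-mean scaling. Rrm1, the large subunit of ribonucleotide reductase, which makes deoxynucleotides, ranged over 1.78 to 2.48 TPM on the LFD and 2.78 to 3.46 TPM on the HFD with vehicle, and over 1.88 to 2.40 and 3.23 to 4.48 TPM with the mixture. Both pairs of groups were apart, with rises of 0.41 (SE 0.07, adjusted p = 3.2e-05) and 0.57 (SE 0.07, adjusted p = 4.44e-08). Rrm2, the small subunit of the same enzyme, did not follow Rrm1 in males, with differences of -0.15 (SE 0.18) and -0.08 (SE 0.18) and no call. Tyms, which makes thymidylate, differed by 0.19 (not called) and 0.32 (called). Tk1, the thymidine kinase of the salvage route, was the 1 gene of the 38 called lower on the HFD in males, from 11.7, 17.7 and 19.999 to 7.44, 9.998 and 10.5 TPM with vehicle (-0.75, SE 0.20, adjusted p = 0.00365) and from 8.57, 18.7 and 23.6 to 6.73, 8.95 and 11.1 TPM with the mixture (-0.80, SE 0.20, adjusted p = 0.00147). The vehicle groups were apart and the mixture groups overlapped. Of the untested genes, Gins2, a part of the helicase complex, had a mean of 0.222 ± 0.130 TPM (SD, n = 6) on the LFD and 0.663 ± 0.167 on the HFD in vehicle males, and the origin licensing factor Cdc6 stood at 0.101 ± 0.101 and 0.262 ± 0.0626 TPM.

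E2f1, the transcription factor that drives S-phase genes, was the gene of the 38 with the smallest p in the averaged diet comparison (0.75, SE 0.06, adjusted p = 2.18e-14), and it rose in both sexes and both exposures. In males with vehicle it was at 2.41, 3.65 and 4.34 TPM on the LFD and 6.47, 7.20 and 9.82 TPM on the HFD. In males with the mixture it was at 2.35, 3.59 and 4.14 and 4.13, 7.00 and 7.95 TPM, and the groups overlapped narrowly. In females it went from 1.69, 1.97 and 2.70 to 3.19, 3.64 and 4.38 TPM with vehicle and from 1.87, 2.13 and 2.69 to 3.56, 4.16 and 4.66 TPM with the mixture, without overlap. The 4 differences were 0.94 (SE 0.12), 0.76 (SE 0.12), 0.63 (SE 0.12) and 0.67 (SE 0.12), and all 4 adjusted p lay between 3.05e-08 and 6.07e-05. No alternative setting and no left-out library removed any of these 4 calls. The cyclin E genes, whose products drive Cdk2 at the start of S phase, were called in mixture males and in no other of the 4 strata: Ccne1 by 0.51 (SE 0.20, adjusted p = 0.0364) and Ccne2 by 0.34 (SE 0.13, adjusted p = 0.0271). Both calls were lost without any of 7 or 8 of the 12 libraries and under trimmed-mean scaling, and that of Ccne2 also without the 3 libraries with muscle transcripts (0.30). Averaged over sex and exposure Ccne1 was called for diet (0.26, SE 0.10, adjusted p = 0.0273), and without those 3 libraries it was not (0.23, adjusted p = 0.0503).

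**Figure D1:**
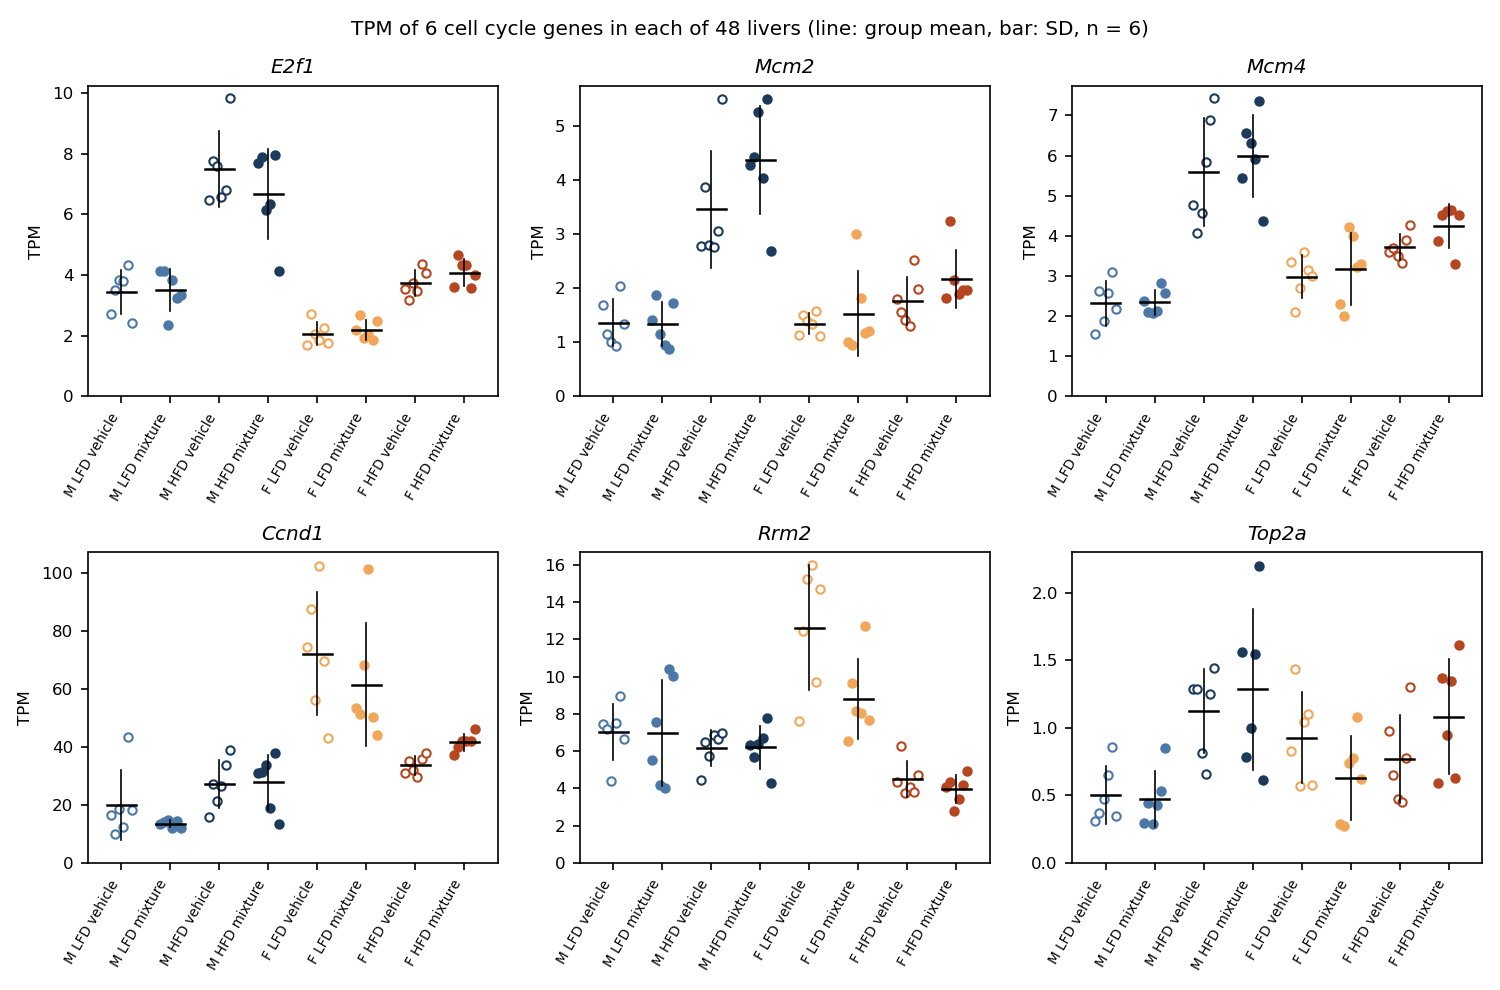
TPM of E2f1, Mcm2, Mcm4, Ccnd1, Rrm2 and Top2a in each of the 48 livers (points), with the mean (line) and SD (bar) of each group of 6; the x axis names sex (M, F), diet and exposure, and open points mark vehicle. Mcm2 and Mcm4 are highest in the HFD males, E2f1 is higher on the HFD in both sexes, and Ccnd1 and Rrm2 have their highest medians in the LFD females.

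Some of the mitosis genes rose in HFD males too. Of the 21, 16 were tested. In vehicle males 5 of these 16 were called, all higher: Aurka, Top2a, Bub1b, Plk1 and Cdk1. Among all genes tested 25.6% were called higher, a share not far below that of the 16. Trimmed-mean scaling left Aurka and Top2a. Aurka, a kinase of the spindle poles, was at 1.64, 2.19 and 2.61 TPM on the LFD and 3.02, 3.41 and 3.86 TPM on the HFD, without overlap (0.49, SE 0.12, adjusted p = 0.00169). Top2a, the topoisomerase that untangles sister chromatids, went from 0.312, 0.421 and 0.860 to 0.658, 1.27 and 1.44 TPM (0.50, SE 0.16, adjusted p = 0.0118), and these groups overlapped. The calls of Bub1b, of the spindle checkpoint, Plk1, a mitotic kinase, and Cdk1 had adjusted p of 0.0342, 0.0452 and 0.0461. Each of the 3 was also lost without the filter and without any of at least 7 of the 12 libraries. In mixture males 13 of the 16 tested were called, all higher, where 31.7% of all genes tested were called higher. They had their smallest p in Cdca8, a part of the chromosomal passenger complex (0.52, SE 0.11, adjusted p = 0.000197), Aurka (0.54, SE 0.12, adjusted p = 0.000476) and Mki67 (0.63, SE 0.15, adjusted p = 0.000741). Mki67 was at 0.383, 0.511 and 0.582 TPM in LFD mixture males and 0.574, 1.39 and 2.04 TPM in HFD mixture males, with an overlap of the ranges. Cdk1, the mitotic kinase, was at 0.494 to 1.59 and 0.507 to 3.10 TPM, and its partner Ccnb2 rose by 0.73. Cdc20, which activates the anaphase-promoting complex, rose by 0.76, cyclin A2 (Ccna2) by 0.43 and the spindle motor Kif11 by 0.31; the calls of Ccna2 and Kif11 were lost under trimmed-mean scaling. Cenpa, the histone variant of the centromere, Birc5, also of the passenger complex, and the kinesin Kif20a were not called in either exposure. Of the untested mitosis genes, mean levels in LFD and HFD vehicle males were 0.286 ± 0.208 and 0.566 ± 0.317 TPM (SD, n = 6) for Ccnb1 (cyclin B1), 0.0502 ± 0.0602 and 0.196 ± 0.136 for the checkpoint kinase Bub1 and 0.445 ± 0.163 and 0.758 ± 0.241 for Aurkb, the kinase of the passenger complex. For the spindle proteins Nusap1 and Prc1 they were 0.517 ± 0.161 and 0.664 ± 0.269 and 0.321 ± 0.150 and 0.414 ± 0.150 TPM. All 21 differences lay above 0 in mixture males and 20 of 21 in vehicle males, and above the median of all genes in 20 and 18 of 21.

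In females the diet gave fewer called genes than in males, and the largest difference in either exposure was the decrease of Rrm2. Above the median of all genes stood 15 of the 38 with vehicle and 34 with the mixture. With vehicle 4 of the 38 were called, 1 higher (E2f1) and 3 lower (Rrm2, Ccnd1, Rrm1), where 28.0% of all genes tested were called (14.4% higher, 13.5% lower). With the mixture 8 were called, 7 higher and 1 lower (Rrm2), against 19.2% (11.5% and 7.74%). The median over the 38 genes was -0.07 with vehicle and 0.23 with the mixture, and the median of all genes was -0.0077 and -0.00087. Without overlap of the diet groups, 1 member was higher and 2 lower with vehicle (6.11% and 4.87% of all genes tested), and 2 were higher and 2 lower with the mixture (5.91% and 3.56%). Rrm2 was at 7.60, 13.6 and 16.0 TPM in LFD vehicle females and 3.75, 4.23 and 6.30 TPM in HFD vehicle females. With the mixture it was at 6.56, 8.10 and 12.7 and 2.79, 4.14 and 4.95 TPM. No HFD female reached the lowest LFD female in either exposure, and Rrm2 fell by 1.28 (SE 0.18, adjusted p = 4.65e-07) and by 0.97 (SE 0.18, adjusted p = 8.58e-05). Ccnd1, cyclin D1, which starts the passage through G1, had levels of 42.9, 72.0 and 102 TPM in LFD vehicle females and 29.7, 33.5 and 37.97 TPM in HFD vehicle females, again apart (-1.03, SE 0.23, adjusted p = 0.000798). With the mixture the female difference in Ccnd1 was -0.50 (SE 0.23, adjusted p = 0.137) and was not called. Rrm1 differed by -0.25 (SE 0.07, adjusted p = 0.0102) with vehicle and by 0.02 (SE 0.07) with the mixture.

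The 7 genes that rose in HFD mixture females were E2f1, Pcna, Cdca3, Cdc20, Mcm5, Mcm4 and Cdk1. Pcna rose by 0.29 (SE 0.08, adjusted p = 0.0044), from 23.8, 28.4 and 32.8 to 31.8, 34.4 and 36.3 TPM, and the ranges overlapped. Cdca3, which takes part in the turnover of a mitotic inhibitor, rose by 0.59 (SE 0.17, adjusted p = 0.00877) and Cdc20 by 0.67 (SE 0.22, adjusted p = 0.0235). Mcm5 (0.54), Mcm4 (0.35) and Cdk1 (0.45) had adjusted p of 0.0445, 0.0456 and 0.049. These 3 calls and that of Cdc20 were lost without the filter on low values, which left 4 called genes. The count also fell to 4 or 5 without any 1 of 7 libraries (LFD mixture female replicates 1, 2 and 6 and HFD mixture female replicates 2, 3, 4 and 6). None of the 16 mitosis genes tested was called in vehicle females by limma, and none had an unadjusted p under 0.05 (38% of all genes did). Of the differences of all 21 mitosis genes, 17 lay below 0.

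**Figure D2:**
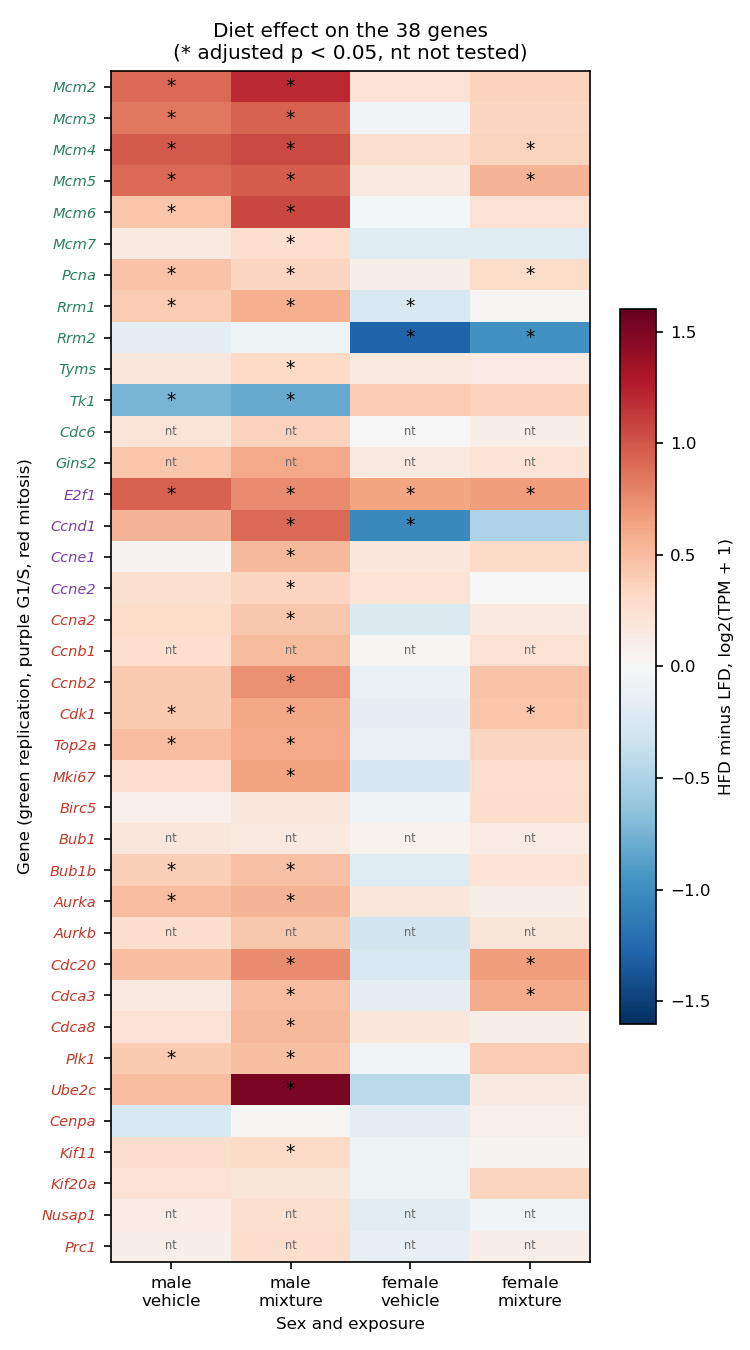
HFD minus LFD difference of each of the 38 genes (rows, coloured by role) in the 4 combinations of sex and exposure (columns), on the log2(TPM + 1) scale; asterisks mark adjusted p under 0.05 and nt marks the 7 genes that were not tested. Both male columns are mostly red, with 14 and 27 asterisks, while the female columns hold 4 and 8 and are deepest blue at Rrm2.

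The diet effect differed between the sexes in 18 of the 38 genes by a test of the difference itself, female minus male, averaged over exposure; 33.2% of all genes tested differed (6.58% higher and 26.6% lower in females). In 17 of the 18 the female effect was the lower, and the median over all 38 genes was -0.36 against -0.13 for all genes. With trimmed-mean scaling, which moved the median of all genes by 0.14, 10 were called, 9 lower and 1 higher. The share of higher among all called genes then moved from 19.8% to 51.7%. By role the called genes were 10 of 13 replication genes (11 tested), 1 of 4 G1/S genes (4 tested) and 7 of 21 mitosis genes (16 tested). Rrm1 had the smallest p (-0.60, SE 0.07, adjusted p = 3.36e-08): its diet effect averaged 0.49 in males and -0.11 in females. Mcm4 differed by -0.72 (SE 0.13, adjusted p = 2.23e-05), with 1.02 in males and 0.30 in females, and Mcm2 by -0.76 (SE 0.15, adjusted p = 0.000177), with 1.05 and 0.29. For Ccnd1 the averaged effects had opposite signs, 0.73 in males and -0.76 in females, and the difference was -1.49 (SE 0.23, adjusted p = 3.45e-06). For Rrm2 they were -0.11 and -1.13 (-1.01, SE 0.18, adjusted p = 2.36e-05). Tk1 alone went the other way, with -0.77 in males and 0.39 in females (1.16, SE 0.20, adjusted p = 1.69e-05). Among the mitosis genes Aurka (-0.38), Mki67 (-0.45), Bub1b (-0.41), Ube2c (-1.15, or -0.53 without the 3 libraries with muscle transcripts), Top2a (-0.44), Kif11 (-0.31) and Ccna2 (-0.40) were called. With trimmed-mean scaling the calls of Mcm5, Mcm7, Pcna, Ccna2, Top2a, Bub1b, Aurka and Kif11 were lost. For E2f1 the difference between the sexes was -0.20 (SE 0.12, adjusted p = 0.191).

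**Figure D3:**
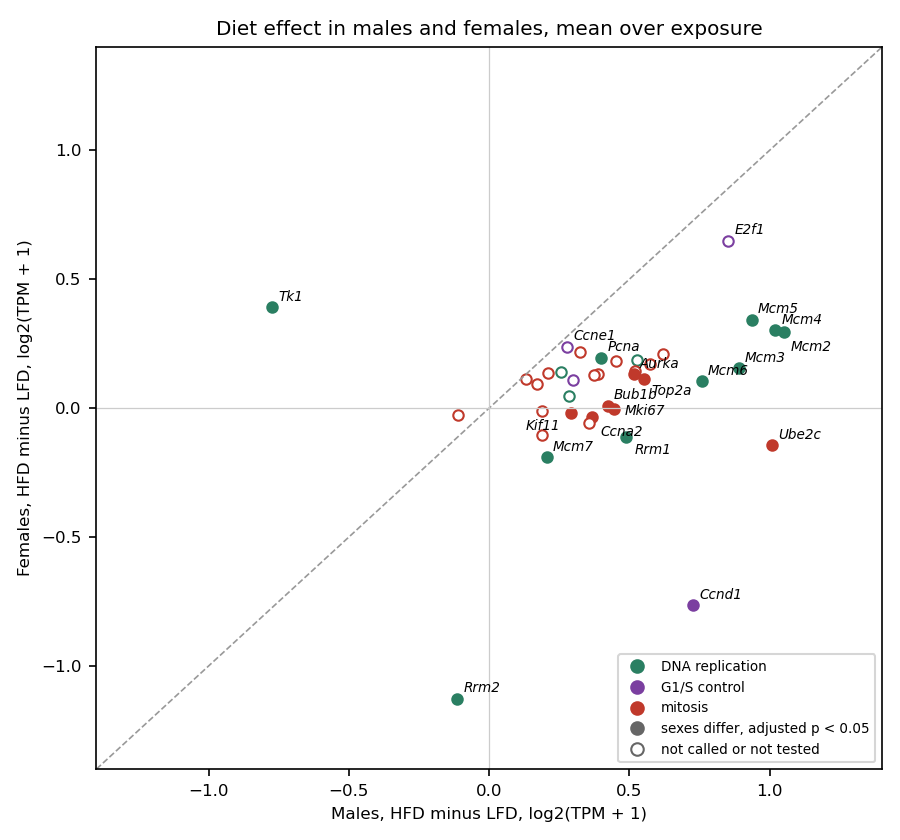
Diet effect (HFD minus LFD, log2(TPM + 1), mean over exposure) of the 38 genes in males (x axis) and females (y axis), coloured by role; filled points mark the 18 genes whose diet effect differed between the sexes, and the dashed line marks equal effects. Most points lie below the line and to the right of 0, Tk1 lies farthest above it, to the left, and Rrm2 and Ccnd1 lie lowest.

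Sex gave fewer calls than diet among these genes. Averaged over diet and exposure 7 of the 38 differed between females and males, 2 higher and 5 lower in females, where 31.2% of all genes tested differed (19.0% and 12.2%). With trimmed-mean scaling 2 were higher and 6 lower, 1 of the 6 not called before scaling. The share of higher among all called genes moved from 60.8% to 47.6%. The median over the 38 genes was 0.0021 and over all genes 0.03. Ccnd1 had the smallest p (1.24, SE 0.12, adjusted p = 8.51e-12). It was at 42.9, 72.0 and 102 TPM in LFD vehicle females and 9.84, 17.4 and 43.4 TPM in LFD vehicle males, where 1 male of 43.4 TPM reached into the female range. In LFD mixture livers the sexes were apart, as they were for 2 members and 6.51% of all genes tested in this direction, at 44.0, 52.3 and 101 TPM in females and 12.0, 13.8 and 14.7 TPM in males (4.55-fold in mean TPM, 2.05, SE 0.23, adjusted p = 4.27e-09). On the HFD the female difference was 0.34 (SE 0.23, adjusted p = 0.402) with vehicle and 0.64 (SE 0.23, adjusted p = 0.0553) with the mixture, and neither was called. E2f1 was lower in females in all 4 strata, with differences of -0.53, -0.84, -0.48 and -0.58 in LFD vehicle, HFD vehicle, LFD mixture and HFD mixture livers, each called, and with an average difference of -0.61. Its levels in HFD vehicle livers, 3.19, 3.64 and 4.38 TPM in females and 6.47, 7.20 and 9.82 TPM in males, did not overlap, where 4 members and 4.00% of all genes tested were lower in females without overlap. Ccne1 was also lower in females (-0.58, SE 0.10, adjusted p = 7.97e-06), as were Mcm2 (-0.33, SE 0.08, adjusted p = 0.000702), Mcm3 (-0.26, SE 0.08, adjusted p = 0.00856) and Mcm5 (-0.26, SE 0.10, adjusted p = 0.0341). The call of Mcm5 was lost without any of 11 of the 48 libraries. No mitosis gene was called in the averaged comparison by limma, and none had an unadjusted p under 0.05, as 39.7% of all genes had.

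Taken by diet, the shares of the 31 tested members called higher and lower in LFD vehicle females were near those of all genes. On the HFD more members were lower than higher in females, as more of all genes were. In LFD vehicle livers 8 of the 38 genes were called, 6 higher in females (Ccnd1, Rrm2, Rrm1, Pcna, Bub1b and Cdk1) and 2 lower (E2f1, Ccne1), where 23.7% of all genes were called (17.1% and 6.61%). Trimmed-mean scaling left 4 higher and 2 lower, and the share of higher among all called genes moved from 72.1% to 47.8%. Without LFD vehicle male replicate 6 or LFD vehicle female replicate 5 the count was 5. Rrm2 was 7.60, 13.6 and 16.0 TPM in these females and 4.38, 7.33 and 8.96 TPM in the males (0.75, SE 0.18, adjusted p = 0.00161), with an overlap. In HFD vehicle livers 7 were called, Tk1 higher and E2f1, Rrm1, Mcm2, Mcm3, Mcm5 and Mcm4 lower in females, against 11.8% of all genes (3.53% and 8.26%). The scaling kept 1 higher and 6 lower here, while the share of higher among all called genes went from 29.9% to 43.4%. In LFD mixture livers 4 were called, Ccnd1 and Mcm7 higher, E2f1 and Ccne1 lower, against 21.5% (16.6% and 4.92%). The scaling left 1 higher and 2 lower (from 77.1% to 44.6% higher among all called genes). Without the 3 libraries with muscle transcripts Ccne1 was not called in either LFD stratum (-0.45 with vehicle, -0.51 with the mixture). The LFD mixture count was 2 without LFD mixture male replicate 5, without LFD mixture female replicate 6 or without the filter on low values. In HFD mixture livers 9 were called, against 15.3% (5.56% and 9.73%): Tk1 was higher, and Rrm1, E2f1, Mcm2, Ccne1, Mcm3, Mcm4, Mcm6 and Rrm2 were lower in females. The scaling gave 2 higher and 7 lower (from 36.3% to 51.0%). Tk1 was at 16.7, 20.9 and 29.0 TPM in HFD mixture females and at 6.73, 8.95 and 11.1 TPM in the males, which did not overlap (1.14, SE 0.20, adjusted p = 5.16e-05; 3.32% of all genes were apart in this direction). Rrm1 was at 2.09 to 2.78 TPM in these females and 3.23 to 4.48 TPM in these males, also apart (3.53% in that direction).

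The mixture changed none of the 38 genes at an adjusted p under 0.05 by limma, in any of the 4 combinations of sex and diet, in their mean, or in the differences between diets or sexes. It called few genes at all: 0.0379% of all genes tested in LFD males, 0.0948% in HFD males, 0.0379% in LFD females, 0.0126% in HFD females and 0.0948% in the mean, and 0.00632% for the difference between diets in each sex and 0% for that between sexes. No setting and no left-out library gave a called member. At an unadjusted p under 0.05 there were 0 members in LFD males, 5 higher in HFD males, 3 lower in LFD females and 6 higher in HFD females. The same threshold passed 5.25%, 9.39%, 9.50% and 4.24% of all genes in either direction. In the mean over the 4 strata it was 1 member, Cdca3 (0.19, SE 0.08, adjusted p = 0.365 by limma), and 11.7% of all genes.

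The members at an unadjusted p under 0.05 were different sets in HFD females, HFD males and LFD females. Cdk1 alone was shared, between HFD males and LFD females. Each set was picked by p within its stratum, so its direction is no separate result. In LFD females the number was near the share of all genes. In HFD females the 6 were all mitosis genes: Cdca3, Cdc20, Cenpa, Mki67, Ccnb2 and Birc5. Cdc20 was at 0.568, 0.912 and 1.77 TPM with vehicle and 1.72, 2.32 and 3.32 TPM with the mixture (0.72, SE 0.22, adjusted p = 1 by limma). Cdca3 was at 0.635, 1.11 and 1.62 and 1.27, 2.73 and 3.03 TPM (0.63, SE 0.17, adjusted p = 1 by limma). For both the top of the vehicle range passed the bottom of the mixture range. Ccnb2, cyclin B2, was the 1 member whose vehicle and mixture livers did not overlap in any stratum, at 0.792, 1.44 and 1.68 TPM with vehicle and 1.74, 2.37 and 3.30 TPM with the mixture. In that stratum 0.177% of all genes were apart in this direction. In HFD males the 5 were Ccne1 (0.48), Rrm1 (0.17), Cdk1 (0.38), Ube2c (0.86) and Mcm6 (0.34). The value of Ube2c rests on HFD mixture male replicate 6: without the 3 libraries with muscle transcripts it was 0.28 (unadjusted p = 0.107 by limma). The number of members at an unadjusted p under 0.05 was then 10 in HFD males, all higher, where 10.4% of all genes passed, and 4 in LFD females, all lower (10.1%). None of them was called. In LFD females the 3 with lower values were Rrm2 (-0.46), Pcna (-0.16) and Cdk1 (-0.34).

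By role, the median difference of the 21 mitosis genes was -0.05 in LFD males, 0.16 in HFD males, -0.14 in LFD females and 0.21 in HFD females, against -0.0038, 0.03, 0.02 and 0.03 for all genes tested. Above the median of all genes stood 7, 19, 2 and 16 of the 21. The 13 replication genes had medians of -0.02, 0.10, -0.08 and 0.04. The mitosis medians without the 3 muscle-bearing libraries were 0.20 in HFD males and -0.20 in LFD females. Markers of other liver cells had like signs in part. The median difference of 14 Kupffer cell and macrophage markers was -0.23 in LFD males (0 of 14 above 0), 0.12 in HFD males (9), -0.13 in LFD females (5) and 0.36 in HFD females (14). That of 11 stellate cell markers was -0.27 (0 of 11 above 0), 0.38 (10), -0.02 (4) and 0.13 (9), and 9 of 9 cholangiocyte markers lay above 0 in HFD males (median 0.39). No marker of these 3 lists was called, and their part in the mixture differences of the cell cycle genes was not tested. Other lists had other signs, also without a call. Hepatocyte markers had medians of -0.05, -0.14, -0.08 and -0.08 in the same order, and T and NK cell markers of -0.01, -0.06, 0.03 and 0.03. Tested directly, the mixture effect on the HFD minus that on the LFD gave no called member; at an unadjusted p under 0.05 there were 8 members in females and 1 in males, with 4.64% and 7.32% of all genes. The 8 were Cdca3 (0.75), Cdc20 (0.93), Cdk1 (0.61), Mki67 (0.54), Rrm1 (0.27), Kif20a (0.44), Top2a (0.47) and Bub1b (0.42), and the 1 in males was Mcm6 (0.63). Without the 3 libraries with muscle transcripts there were 12 in females and 4 in males, again none called. The mixture effect in females minus that in males gave 0 called members and 0 at an unadjusted p under 0.05 by limma, where 4.65% of all genes passed the latter; without those libraries 3 members passed it and none was called.

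**Figure D4:**
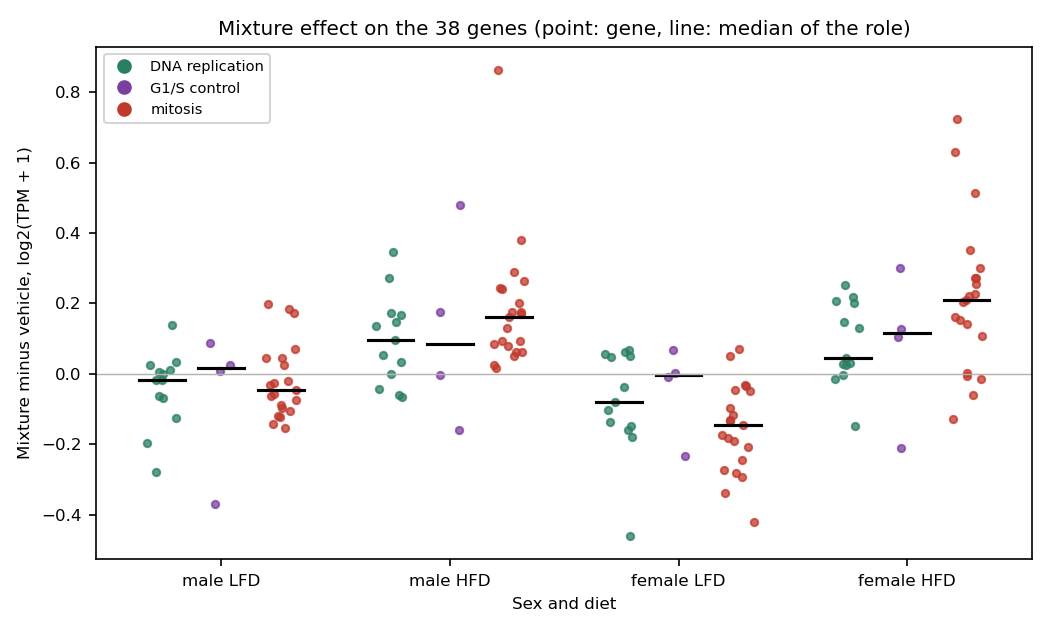
Mixture minus vehicle difference of each of the 38 genes (points, log2(TPM + 1)) by sex and diet, split by role, with the median of each role as a line. The mitosis medians lie below 0 on the LFD (-0.05 and -0.14) and above 0 on the HFD (0.16 and 0.21); no point was called, and the highest, at 0.86, is Ube2c in HFD males (0.28 without the 3 libraries with muscle transcripts).

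Within groups, 7 pairs of members were compared from animal to animal. After each group's mean was removed, the 48 livers gave these correlations of log2(TPM + 1), with permutations within groups and Benjamini-Hochberg adjustment over the 9 pairs computed. Mcm2 and Mcm5 had a Pearson r of 0.597 (permutation p = 2e-05, adjusted 9e-05) and a Spearman rho of 0.581 (permutation p = 6e-05, adjusted 0.00027), and r = 0.545 without the 2 livers farthest in Mcm2. Cdk1 and Top2a had r = 0.553 (permutation p = 0.00042, adjusted 0.000945) and rho = 0.528 (permutation p = 0.00062, adjusted 0.00139), and r = 0.432 without 2 livers. Across roles, Mcm2 and Top2a had r = 0.469 (permutation p = 0.00195, adjusted 0.00292) and rho = 0.475 (permutation p = 0.00112, adjusted 0.00202), r = 0.476 without 2 livers, and r above 0 in 8 of 8 groups. Mcm2 and Ccnd1 had r = 0.571 (permutation p = 0.00016, adjusted 0.00048) and rho = 0.568 (permutation p = 0.0001, adjusted 0.0003), and r = 0.57 without 2 livers. Mcm2 and E2f1 had r = 0.393 (permutation p = 0.0122, adjusted 0.0137) and rho = 0.328 (permutation p = 0.035, adjusted 0.0394), and r = 0.422 without 2 livers. Mcm2 and Rrm2 had no p under 0.05, with r = 0.243 (permutation p = 0.109, adjusted 0.109), rho = 0.245 (permutation p = 0.118, adjusted 0.118) and r = 0.277 without 2 livers. Mcm2 and Tk1 ran against each other, with r = -0.363 (permutation p = 0.00849, adjusted 0.0109) and rho = -0.446 (permutation p = 0.00258, adjusted 0.00387), and r = -0.389 without 2 livers. Of the 8 groups, r was above 0 in 7 for Mcm2 and Mcm5 and in 7 for Cdk1 and Top2a. It was above 0 in 6 for Mcm2 with Ccnd1, E2f1 or Rrm2, and in 2 for Mcm2 with Tk1. Between the male diets Tk1 fell where Mcm2 rose (-0.77 and 1.05, averaged over exposure). In females both differences lay above 0 (0.39 for Tk1 and 0.29 for Mcm2), and neither gene was called there. Tk1 also overlaps another gene, as described below.

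Exons of 12 of the 38 genes overlap a gene on the opposite strand in the GENCODE annotation of GRCm38. The strand setting of the counting was not given in the sources used here. Reads from the shared exon bases of such a pair therefore cannot be told apart here. Tk1 (chr11:117815526-117826092, minus strand) shares 83 exon bases with Afmid, a formamidase gene of tryptophan breakdown, on the plus strand. Afmid was at 29.1, 47.8 and 53.1 TPM in LFD mixture males and 20.5, 25.0 and 32.0 TPM in HFD mixture males, and at 37.7, 47.5 and 52.5 and 51.4, 59.6 and 77.9 TPM in mixture females, so that in mixture livers its medians and those of Tk1 moved in the same direction with diet. Within groups Tk1 and Afmid had r = 0.85 and rho = 0.843 (each permutation p = 1e-05, the smallest that 100000 permutations give, adjusted 9e-05), r = 0.815 without the 2 livers farthest in Tk1, and r above 0 in 8 of 8 groups. Whether Tk1 and Afmid are each measured from their own reads was not tested. Ube2c, the ubiquitin enzyme of the anaphase-promoting complex (chr2:164769898-164778822, plus strand), shares 592 exon bases with Tnnc2, the troponin C of fast skeletal muscle. Its highest levels, 32.1, 10.9 and 3.12 TPM, were in the 3 libraries with the most skeletal muscle transcripts (HFD mixture male replicate 6, LFD vehicle female replicate 3 and LFD mixture female replicate 3). Ube2c and Tnnc2 had r = 0.828 (permutation p = 0.00059, adjusted 0.00106) and rho = 0.525 (permutation p = 0.00389, adjusted 0.005). Without the 2 livers farthest in Ube2c r was 0.606, and r was above 0 in 6 of 8 groups. The correlation without all 3 of those libraries was not computed. Without the 3 libraries the HFD difference of Ube2c in mixture males was 0.93 in place of 1.52, and the difference between the sexes was -0.53 in place of -1.15; both stayed called. Both partner pairs were chosen after their values were seen. The largest overlaps among the others were those of Gins2 with Gse1 (2758 bases), Kif20a with Cdc23 (1271) and Ccnd1 with LTO1 (1100), and Ccnd1 was far above LTO1, at medians of 34.4 and 4.204 TPM.

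**Figure D5:**
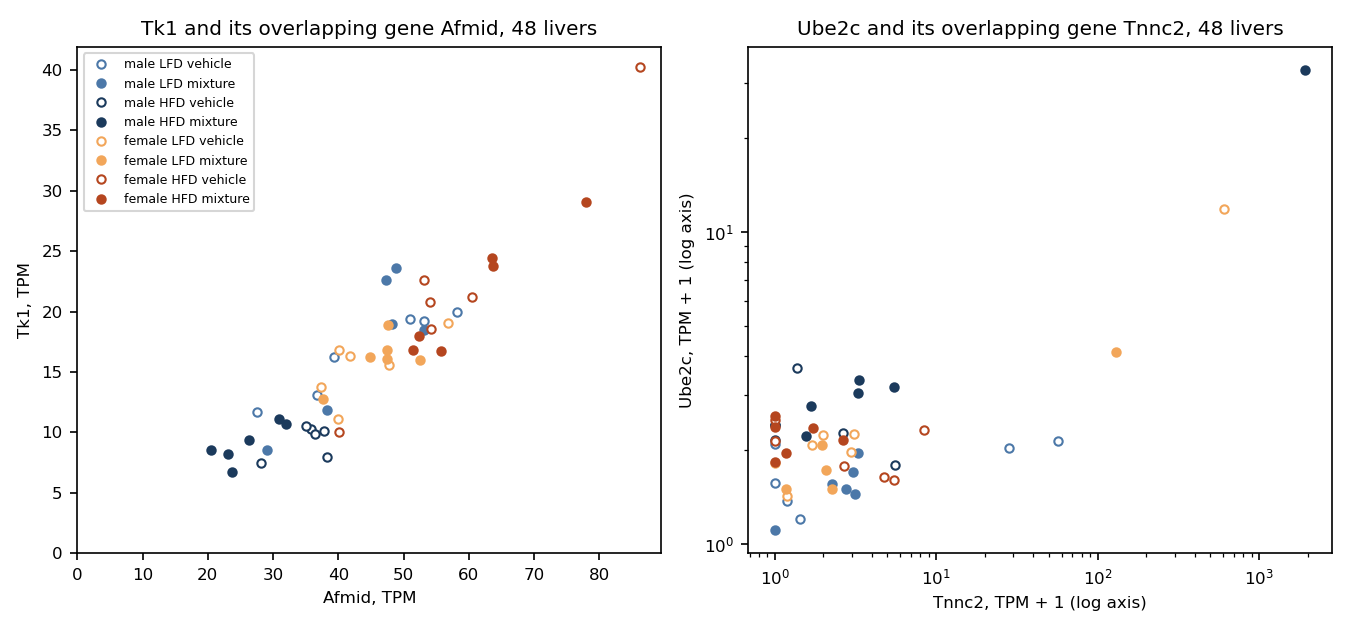
TPM of Tk1 against Afmid on linear axes (left) and TPM + 1 of Ube2c against Tnnc2 on log axes (right) in the 48 livers, coloured by group. Tk1 follows Afmid through all groups; Ube2c is highest in the livers with the most Tnnc2, and without those 3 livers it stays at 2.67 TPM or less.

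Other genes of the pathway were read from 5 longer lists. Averaged over sex and exposure, 50.5% of all genes tested were called for diet, 35.0% higher and 15.5% lower. Of the 38 members 23 were higher and 1 lower, with a median of 0.24 beside 0.06 for all genes. With trimmed-mean scaling 20 were higher and 3 lower, and the share of higher among all called genes moved from 69.2% to 50.8%. Of 58 further replication genes, 45 of them tested, 29 were higher and 1 lower on the HFD, with a median of 0.18. Those that rose included Rfc2, a subunit of the clamp loader (0.31, SE 0.04, adjusted p = 1.65e-09), and Gins1, a subunit of the helicase complex (0.42, SE 0.05, adjusted p = 5.68e-09). Of 65 further mitosis genes, 27 tested, 19 were higher and 3 lower (median 0.13). They were led by the spindle checkpoint gene Mad2l1 (0.41, SE 0.05, adjusted p = 4.24e-09) and the kinetochore genes Spc24 (0.58, SE 0.08, adjusted p = 4.21e-08) and Spc25 (0.62, SE 0.09, adjusted p = 5.3e-08), while Ccnf, cyclin F, fell (-0.37, SE 0.07, adjusted p = 1.44e-05). Of 22 further G1 cyclins, kinases and E2F factors 7 were higher and 2 lower (median 0.03), among them Cdk6, a partner of cyclin D, higher (0.59, SE 0.04, adjusted p = 4.31e-15), and the E2F repressor E2f8, lower (-0.31, SE 0.13, adjusted p = 0.0455).

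Some genes that hold the cycle back were also higher on the HFD, averaged over sex and exposure, where 35.0% of all genes tested were higher and 15.5% lower. Counts in the longer lists were not repeated with trimmed-mean scaling. Of 11 inhibitors of cyclin-dependent kinases and pocket proteins, 9 tested, 5 were higher and 1 lower (median 0.12). Among the higher were the pocket protein Rbl1 (0.34, SE 0.05, adjusted p = 8.94e-07) and the inhibitors Cdkn1c (0.52, SE 0.10, adjusted p = 1.57e-05) and Cdkn2c (0.40, SE 0.08, adjusted p = 3.36e-05). Of 22 p53 targets and growth arrest genes 11 were higher and 1 lower (median 0.28), led by the death receptor Fas (0.63, SE 0.06, adjusted p = 9.71e-13), Gadd45a (1.47, SE 0.14, adjusted p = 2.61e-12) and Wee1, the kinase that restrains Cdk1 (1.12, SE 0.17, adjusted p = 4.35e-07); Gadd45g fell (-0.90, SE 0.22, adjusted p = 0.000778). The diet effect on Cdkn1a, which encodes the inhibitor p21, had opposite signs in the sexes; the gene was chosen after its values were seen. In males it was at 2.43, 3.62 and 6.19 TPM on the LFD and 9.64, 20.3 and 40.7 TPM on the HFD with vehicle, and at 2.46, 4.32 and 11.9 and 9.25, 25.5 and 38.8 TPM with the mixture. In females it was at 21.4, 59.0 and 100.1 TPM on the LFD and 8.63, 12.0 and 19.9 TPM on the HFD with vehicle, and at 21.1, 32.0 and 57.4 and 6.41, 8.47 and 12.0 TPM with the mixture. The diet groups were apart in vehicle males, in vehicle females and in mixture females, and overlapped in mixture males. The female effect minus the male effect was -3.93 (SE 0.32, adjusted p = 3.28e-12). Ccnd1 had the same pair of signs.

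Between the sexes, 4 of the 58 further replication genes (45 tested) were higher and 12 lower in females on average, where 19.0% of all genes tested were higher and 12.2% lower. Mcm10, which helps start the replicative helicase, had the smallest p (-1.604, SE 0.08, adjusted p = 8.03e-22): it was at 4.25, 6.01 and 7.40 TPM in LFD vehicle females and 19.9, 37.8 and 52.8 TPM in LFD vehicle males, and at 10.3, 11.9 and 13.5 and 20.1, 23.3 and 25.96 TPM on the HFD, without overlap. In males its diet effect was opposite to that of the MCM subunits, with -0.60 (SE 0.15, adjusted p = 0.00227) in vehicle males and 0.91 (SE 0.15, adjusted p = 1.3e-05) in vehicle females, and a difference between the sexes of 1.66 (SE 0.15, adjusted p = 6.34e-11). Its group levels were also chosen after the values were seen. Of the further mitosis genes 1 was higher and 4 were lower in females, including Ccnf (-0.77, SE 0.07, adjusted p = 1.41e-12) and Spc24 (-0.57, SE 0.08, adjusted p = 1.43e-07). Of the inhibitors 4 were higher and none lower, including Cdkn1a (1.03, SE 0.16, adjusted p = 1.87e-06) and Cdkn1c (0.76, SE 0.10, adjusted p = 1.84e-08), and of the growth arrest genes 7 were higher and 2 lower, including Gadd45b (1.31, SE 0.17, adjusted p = 2.26e-08). The diet effect differed between the sexes in 19 of the 58 replication genes, 45 of them tested (4 higher and 15 lower in females). It differed in 12 of the 65 mitosis genes, 27 of them tested (all lower). Among all genes tested 33.2% differed (6.58% higher, 26.6% lower). The mixture called no gene of the 5 lists in the mean over the 4 strata.

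Markers of several liver cell types moved with diet and sex beside these genes. Averaged over sex and exposure, 8 of 10 hepatocyte markers were lower on the HFD and none higher, while 10 of 14 Kupffer cell and macrophage markers and 8 of 11 stellate cell markers were higher (1 and 0 lower). Among all genes tested 35.0% were higher and 15.5% lower. Of 8 endothelial markers 3 were higher and 3 lower. The diet effect was lower in females than in males for 10 of 14 Kupffer cell, 10 of 11 stellate cell and 7 of 8 endothelial markers, as it was for 17 of the 38 cell cycle genes and 26.6% of all genes tested. The stellate markers summed to 199 to 243 TPM in LFD vehicle males, 168 to 228 in LFD mixture males, 342 to 422 in HFD vehicle males and 383 to 815 in HFD mixture males. In females the sums were 257 to 507 and 261 to 384 TPM on the LFD and 272 to 356 and 271 to 425 TPM on the HFD, with vehicle and with the mixture. HFD males thus lay above LFD males without overlap, and the female groups overlapped. The Kupffer sums were 264 to 635 and 201 to 410.0 TPM in LFD males, 519.7 to 803 and 530.1 to 810.0 in HFD males, 533 to 1382 and 459 to 807 in LFD females and 516 to 845 and 735 to 1517 in HFD females, in the same order of exposure. The endothelial sums were 113 to 150.2, 122 to 149, 141 to 195, 129 to 175, 166 to 280.5, 178 to 216, 133 to 156 and 144 to 199 TPM, and the hepatocyte sums were 102272 to 149028, 103996 to 118760.0, 78794 to 89369, 61969 to 87124, 132507 to 157195, 105606 to 142721, 89272 to 100442 and 77693 to 100371 TPM, again in that order of groups. No marker of these 4 lists was at 0 in any library. Of 11 T and NK cell markers 1 was called for diet, lower on the HFD. The part of these cell types in the diet and sex differences of the cell cycle genes was not tested.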

How the data were processed

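PolyA RNA of 48 mouse livers, 6 in each of 8 groups of sex, diet and exposure, was sequenced. The authors deposited 1 table of TPM for 49315 genes, whose columns each sum to 1000000, so read depth is unknown and limits the low genes most. The submitters' processing notes name FastQC, Trimmomatic 0.36, STAR 2.5.2b, DESeq2 and the build GRCm38, with no role or order; which counter, annotation, gene lengths and strand setting were used was not given in the sources used here.

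In all, 15820 genes reached 1 TPM in 6 or more libraries and entered limma 3.58.1 (R 4.3.3) on the log2(TPM + 1) scale, in a single model of the 8 groups with 40 residual degrees of freedom and a moderated variance that follows the mean. Benjamini-Hochberg adjustment ran over all of them. The script was tested on simulated data. Group, diet, sex and mixture contrasts and their differences were taken from this model. Correlations and sequences were computed in Python 3.11.15; gene positions came from GENCODE models of GRCm38 (38 of 38 matched) and promoter windows from RefSeq on GRCm38.p6 (31 of 38).

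The 38 genes and all lists were chosen with earlier results of these data known. All 38 were described; members called were named (where more than 12, the 6 with the smallest p per direction and others as examples), group values were given for those with the smallest p in each role, up to 3 called genes were named for each longer list and direction, and windows were printed for 2 replication and 2 mitosis genes with the smallest p. Alternatives were trimmed-mean scaling, no filter, a pseudocount of 0.1, only the groups compared, the replicate number as a block, leaving out 3 libraries with muscle transcripts, and leaving out each library. The labels give no batch, and p-values measure the spread between libraries, each taken as 1 animal. No 2 libraries correlated above 0.983, so none was treated as a duplicate.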

Additional observations from a re-analysis of the deposited data

Results flagged for a closer look

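In 13 of 304 sets of 1 gene and 1 group, a single library stood apart from the other 5 by Dixon's criterion (a gap to the nearest library above 0.625 of the range), 7 high and 6 low; chance alone marks about 1 in 20 sets. Ube2c did so in the 3 libraries with muscle transcripts, at 32.1 TPM in HFD mixture male replicate 6 (median of the others 2.05), 10.9 TPM in LFD vehicle female replicate 3 (1.07) and 3.12 TPM in LFD mixture female replicate 3 (0.718). In HFD mixture male replicate 6, Mcm3 (4.04 TPM, others 7.18), Tyms (1.74, others 2.60) and Gins2 (0.295, others 0.989) were low. The other high values were Cdc6 in LFD vehicle male replicate 5 (0.297 TPM, others 0.0559), Mcm7 in HFD vehicle male replicate 6 (10.2, others 7.59), Kif11 in HFD vehicle female replicate 6 (1.16, others 0.731) and Mcm2 in HFD mixture female replicate 2 (3.25, others 1.97). The other low values were Cdca8 in LFD vehicle male replicate 6 (0.234 TPM, others 0.555), Mcm6 in HFD mixture female replicate 1 (2.41, others 3.61) and Rrm1 in HFD mixture female replicate 5 (2.09, others 2.62).

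The diet effect differed between females and males, by limma's test of the difference itself, in 18 genes. Among the helicase subunits the female effect minus the male effect was -0.76 for Mcm2, -0.73 for Mcm3, -0.72 for Mcm4, -0.59 for Mcm5, -0.65 for Mcm6 and -0.39 for Mcm7. It was -0.20 for Pcna, -0.60 for Rrm1, -1.01 for Rrm2, 1.16 for Tk1 and -1.49 for Ccnd1. Among the mitosis genes it was -0.40 for Ccna2, -0.44 for Top2a, -0.45 for Mki67, -0.41 for Bub1b, -0.38 for Aurka, -1.15 for Ube2c and -0.31 for Kif11.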

How the results depend on the processing

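Of 130 calls of a member in a comparison, 40 were lost under at least 1 of 6 settings, 30 without at least 1 library, and none reversed. Members called only under an alternative are not in these counts. Trimmed-mean scaling lost 29, no filter 24, only the groups compared 15, the pseudocount of 0.1 lost 1 and leaving out the muscle libraries 4 (Ccne2 for diet in mixture males, Ccne1 for diet on average and for sex in both LFD strata). The number of members whose diet effect differed between the sexes went from 18 to 10 under the scaling. Without the filter the number called for diet in mixture females went from 8 to 4, and for sex in LFD mixture livers from 4 to 2. Fewer or more genes tested change the adjustment; other causes were not tested. Leaving out 1 library at a time gave 10 to 17 members for diet in vehicle males, 22 to 27 in mixture males, 4 to 5 in vehicle females, 4 to 8 in mixture females and 22 to 26 on average. The ranges were 16 to 20 for the difference of the diet effect, and for sex 5 to 10 in LFD vehicle, 7 to 8 in HFD vehicle, 2 to 5 in LFD mixture and 7 to 11 in HFD mixture livers and 6 to 7 on average. All mixture comparisons stayed at 0. The replicate block lost the call of Cdk1 for diet in vehicle males (13 members left) and in mixture females (7 left) and gave 25 members for the averaged diet effect, and it changed no other call. Libraries of different groups that share a replicate number had a mean r of their deviations of 0.017, slightly above the -0.00279 of other pairs. Of the 168 such pairs 25 had r above 0.1, and 14 of 48 libraries were best with their own number. These values were not tested against chance. The number was used as a block only in that alternative and not as a pairing in the main model. Depth is unknown in TPM, which limits what can be said of the 7 genes that were not tested.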
